A study of Mus musculus with 16 samples.

Results

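The 10 immediate early response genes described here across the ileum RNA-seq libraries were Fos, Fosb, Junb, Atf3, Egr1, Nr4a1, Ier2, Ier3, Dusp1 and Zfp36. They were chosen by symbol, all 10 were among the 24940 genes of the count table, and all 10 passed the filter on low counts in every comparison. The 16 libraries came from C57BL/6 mice in 4 groups of 4. Controls (WT) were Bcl6 fl/fl males and females, whose Bcl6 gene, which encodes a transcriptional repressor, is flanked by loxP sites. LKO males and females carried the same alleles plus Albumin-Cre. The albumin promoter drives the recombinase in hepatocytes, so the deleted cells are in the liver and the libraries read a tissue in which Bcl6 was not targeted. Every group therefore shared the floxed alleles, and the WT mice carried no Cre. The series asked how hepatic Bcl6 loss alters the distal ileum in each sex. The age of these mice is not given in the sources used here. The study's methods allow for free feeding or a short fast, without saying which applied to them. Each library is labelled by sex, genotype and replicate number, and its title carries a further number whose meaning is not stated. These title numbers were placed in 5 sets of neighbouring numbers, which were spread unevenly over the groups, and some sets held libraries of a single group.

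Immediate early genes are the first genes that a cell transcribes after a growth factor, hormone, cytokine or physical stress, because their promoters are already occupied by factors that kinases can switch on and no new protein is needed. Fos and Jun family proteins pair to form AP-1, a dimeric transcription factor that carries the signal to a second wave of genes. The messages are short-lived, since AU-rich elements in their 3′ untranslated regions recruit decay proteins such as the ZFP36 family, and in gut tissue they are known to respond to feeding, injury and tissue handling.

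The stretches upstream of the start sites are shown because the transcriptional control of these genes is usually read there. RefSeq windows on GRCm38.p6, each with 250 bases before and 50 bases after the annotated start, matched 8 of the 10 genes, all but Egr1 and Ier2. The letters CGTCA on either strand, which form the core of a cyclic AMP response element, occurred in 6 of these 8 windows (Fos, Fosb, Junb, Atf3, Nr4a1 and Dusp1) and in 20.8% of all 32851 windows. A CArG box, the binding motif of serum response factor, occurred in the Zfp36 window alone among the 8 and in 1.63% of all windows. TATAAA was found in the windows of Fos and Junb against 13.6% of all windows, CCGGAAG in that of Zfp36 against 8.86%, and the AP-1 motif TGACTCA in none of the 8 against 5.20%. A CArG box can contain TATAAA, but that of Zfp36 did not, and none of the other motifs contains another. A match describes letters and not an occupied site, and sites farther upstream than the windows were not searched. In the 150 bases before the start of 5 genes, capitals mark CGTCA on either strand and, in Zfp36, the CArG box.
Fos, chr12:85473740-85473889, plus strand: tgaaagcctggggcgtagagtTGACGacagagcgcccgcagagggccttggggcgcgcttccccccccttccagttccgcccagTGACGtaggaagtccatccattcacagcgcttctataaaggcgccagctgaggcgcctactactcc
Atf3, chr1:191183334-191183483, minus strand: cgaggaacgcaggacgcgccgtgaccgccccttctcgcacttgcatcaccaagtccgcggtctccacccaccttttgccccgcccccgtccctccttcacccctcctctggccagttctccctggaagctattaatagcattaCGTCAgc
Nr4a1, chr15:101266696-101266845, plus strand: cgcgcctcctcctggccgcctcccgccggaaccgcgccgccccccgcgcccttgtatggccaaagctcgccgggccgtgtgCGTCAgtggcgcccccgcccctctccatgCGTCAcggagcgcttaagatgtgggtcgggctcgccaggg
Dusp1, chr17:26508473-26508622, minus strand: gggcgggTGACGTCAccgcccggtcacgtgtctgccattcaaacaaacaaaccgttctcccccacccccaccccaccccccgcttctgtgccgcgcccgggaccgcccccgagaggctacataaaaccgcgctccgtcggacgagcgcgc
Zfp36, chr7:28379229-28379378, minus strand: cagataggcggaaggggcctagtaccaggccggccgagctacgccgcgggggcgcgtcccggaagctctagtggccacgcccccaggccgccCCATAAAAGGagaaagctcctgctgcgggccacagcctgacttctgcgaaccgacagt
Fos carried 2 matches in this stretch, at −129 to −125 and −66 to −62 from its start, and Nr4a1 carried 4 in its whole window. In Dusp1 the matches on the opposite strands overlapped, at −143 to −139 and −140 to −136, and so read as a full palindromic element.

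The 3′ untranslated regions were searched for ATTTA, the core of an AU-rich element, in the GENCODE M21 transcripts of GRCm38. At least 1 ATTTA was present in 9 of the 10 genes, against 65.8% of 13625 genes with an annotated 3′ untranslated region, and the longer TATTTAT in 6 of 10 against 27.4%. Ier3 was densest with 8.16 ATTTA per kb, followed by Dusp1 with 5.80, Nr4a1 with 5.52 and Fos with 4.91, where the median of all genes was 1.18. Ier2 had none in 755 bases. In short stretches of 4 genes, numbered from the first base after the stop codon and written as DNA, capitals mark each ATTTA.
Fos, bases 639 to 666: ttattgtgttttcaATTTATTTAttaag
Ier3, bases 169 to 196: cgtgtctaattaatATTTAtgtATTTAt
Dusp1, bases 91 to 118: gggagctggtccttATTTATTTAacacc
Zfp36, bases 569 to 596: gccctttATTTAtgacgactttATTTAt

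Counts over all genes lay between 15.7 and 20.5 M (M, mega) in 15 libraries, with 60.3 M in female LKO replicate 1. Xist and Ddx3y matched the labelled sex in 16 of 16 libraries, while Bcl6, deleted in hepatocytes only, was present in every ileum library at 9.24 to 26.1 CPM and so checks no genotype label. The tissue label was checked with marker genes. Summed enterocyte markers (6 genes, led by Vil1, Apoa1 and Fabp2) were between 6548 and 10446 CPM (counts scaled per M counts of a library), and summed smooth muscle markers (led by Myh11, Acta2 and Tagln) between 2765 and 5418 CPM, so each piece held epithelium and muscle wall. Summed B cell markers (led by Cd79a and Cd79b) varied most, from 14.3 to 291 CPM. In such bulk tissue, fewer cells of a type and less RNA per cell cannot be told apart. Nothing in the labels says how pieces were split into replicates beyond separate samples, so a p-value measures the spread between these samples.

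Levels were first compared between genes on a per-length scale, as RPKM (CPM divided by transcript length in kb). Zfp36, which encodes an RNA-binding protein that promotes decay of AU-rich messages, was highest, with a mean of 135.0 RPKM over the 16 libraries and rank 496 of 15598 genes tested. Fos followed with 70.9 RPKM, Atf3 with 52.8, Junb with 48.7 and Ier2 with 33.8. Egr1 stood at 16.3 RPKM and Dusp1 at 13.4, while Ier3 with 7.94, Nr4a1 with 6.40 and Fosb with 2.25 were lowest. The ranges over libraries of genes next to each other in this order overlapped in 9 of 9 neighbouring pairs. All genes were read in the same libraries, and neighbours were not compared within each library, so this overlap does not show that they were alike. Every one of the 10 was counted in each library, the smallest count being 71, for Fosb in male LKO replicate 4.

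The spread between libraries of the same group differed widely among the 10 genes. The biological coefficient of variation estimated by edgeR, which is the spread between libraries of a group beyond counting error, was 37.7% for Nr4a1, 35.6% for Fosb and 35.5% for Egr1. It was 29.0% for Atf3, 28.8% for Fos and 26.6% for Dusp1. These 6 genes exceeded at least 90% of all genes tested, whose median was 10.6%. Zfp36 (12.8%), Junb (12.3%), Ier3 (12.1%) and Ier2 (9.53%) were close to that median, and 41.5% of genes were at or below Ier2. Counting error at the median count was between 1.56% and 7.94%, so it was below the spread of each gene. The steady and the variable genes were found at low and at high expression alike. Zfp36 had the largest share of its log2 variance lying between the 4 groups, 49.6%, and Egr1 the smallest, 3.42%, against a median of 30.2% for all genes.

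**Figure D1:**
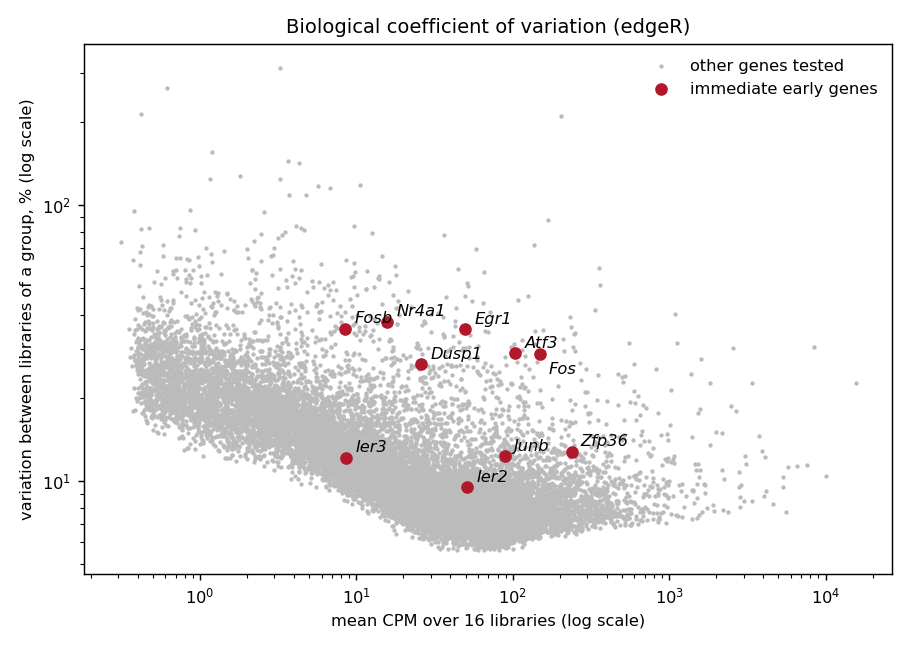
Biological coefficient of variation (percent, log scale) against mean CPM (log scale) for all genes tested (grey) and the 10 immediate early genes (red). Fos, Fosb, Atf3, Egr1, Nr4a1 and Dusp1 sit between 26.6% and 37.7%, while Zfp36, Junb, Ier3 and Ier2 lie between 9.53% and 12.8%, near the median of 10.6%.

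Fos encodes c-FOS, the inducible partner of JUN proteins in AP-1. Its levels were 132, 164, 164 and 184 CPM in the 4 male WT libraries and 213, 139, 163 and 87.4 CPM in male LKO. The male LKO values spanned the whole WT range and went beyond it on both sides. In females Fos was at 161, 148, 114 and 123 CPM in WT and at 122, 100.0, 124 and 249 CPM in LKO. A single library, female LKO replicate 4, was above every other value of Fos, and the remaining LKO females lay within or below the WT range. The male LKO mean differed from the WT mean by −0.09 on the log2 scale (SE 0.27). The female difference was 0.12 (SE 0.31), and −0.25 without female LKO replicate 4.

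Fosb, a related partner of JUN with a lower level here, reached 7.72, 10.5, 7.47 and 16.01 CPM in male WT and 10.99, 11.7, 8.47 and 3.67 CPM in male LKO. Male LKO replicate 4 was lowest and male WT replicate 4 highest of all 16 libraries. Female values were 10.4, 4.84, 4.55 and 9.27 CPM in WT and 6.61, 6.35, 7.19 and 10.1 CPM in LKO, and the LKO values all lay inside the WT range. Log2 LKO minus WT was −0.26 among males (SE 0.40) and 0.05 among females (SE 0.29).

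Junb encodes a JUN protein of AP-1 that moderates c-JUN activity. It varied little, with 71.8, 92.6, 113 and 84.2 CPM in male WT and 87.3, 90.8, 106 and 80.03 CPM in male LKO, the LKO values lying within the WT range. Female WT held 86.9, 96.5, 72.4 and 79.4 CPM and female LKO 82.9, 90.3, 95.6 and 102 CPM, which overlapped as well. Log2 estimates of LKO minus WT were 0.02 for males (SE 0.13) and 0.14 for females (SE 0.09).

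Atf3, a stress-induced transcription factor that can pair with JUN proteins, was at 89.6, 111, 73.5 and 171 CPM in male WT and at 149.9, 159, 129 and 79.6 CPM in male LKO. Of the LKO males 3 were above 3 of the WT males, but male WT replicate 4 was above them all and male LKO replicate 4 was low. Female WT libraries gave 99.7, 106, 85.0 and 74.1 CPM and female LKO libraries 87.4, 95.6, 49.0 and 105 CPM. Female LKO replicate 3 was the lowest of the 16. LKO minus WT came to 0.22 (SE 0.33) in males and −0.11 (SE 0.24) in females, in log2 units.

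Egr1, a zinc-finger factor induced by growth factor signalling, showed its spread almost entirely in females. It measured 35.4, 38.1, 50.2 and 52.0 CPM in male WT and 46.9, 44.2, 48.0 and 46.2 CPM in male LKO, where the 4 libraries lay within a narrow band inside the WT range. In female WT it measured 93.2, 54.6, 28.1 and 43.7 CPM and in female LKO 45.3, 33.0, 41.3 and 98.3 CPM. Female WT replicate 1 and female LKO replicate 4 were each far above the other females of their group. On the log2 scale LKO minus WT was 0.08 for males (SE 0.11) and −0.01 for females (SE 0.49).

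Nr4a1 encodes an orphan nuclear receptor (NUR77) that is controlled mainly through its level. Male WT libraries held 12.2, 16.3, 11.8 and 9.44 CPM and male LKO libraries 12.7, 20.2, 14.5 and 10.2 CPM, with overlap. Female WT libraries split into a high and a low pair, at 28.6, 26.6, 9.82 and 10.03 CPM, and so did female LKO libraries, at 11.48, 12.1, 21.1 and 25.7 CPM. High and low females thus occurred in both genotypes. The estimates for LKO minus WT (log2) were 0.22 among males (SE 0.22) and −0.11 among females (SE 0.48).

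Ier2, a nuclear protein of the early response, was the steadiest of the 10. Male WT values of 43.1, 50.2, 55.7 and 47.5 CPM stood beside male LKO values of 49.5, 52.1, 53.7 and 45.2 CPM, which fell inside the WT range. Female WT values were 53.1, 57.6, 42.4 and 49.3 CPM and female LKO values 51.6, 52.3, 55.3 and 62.2 CPM, of which 1 was above the WT range. For LKO minus WT the log2 estimate was 0.04 among males (SE 0.09) and 0.13 among females (SE 0.09).

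Ier3 encodes a small stress-induced protein linked to cell survival. Libraries of male WT gave 9.39, 7.59, 9.72 and 9.49 CPM and those of male LKO 9.16, 10.5, 7.19 and 6.93 CPM. Male LKO replicates 3 and 4 were below every WT male, and male LKO replicate 2 was above them. Libraries of female WT gave 9.98, 8.81, 8.61 and 8.11 CPM and those of female LKO 7.61, 9.10, 7.69 and 8.07 CPM, and the LKO replicates 1, 3 and 4 were below every WT female. Ier3 was the member with the lowest estimate over both sexes, at −0.12 (SE 0.09, log2), and its estimate was below 0 in each sex, −0.10 in males and −0.13 in females.

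Dusp1 and Zfp36 attenuate the response. Dusp1 encodes a dual-specificity phosphatase that inactivates MAP kinases, and it was at 26.2, 24.3, 19.9 and 32.9 CPM in male WT and 28.4, 39.3, 25.8 and 22.0 CPM in male LKO. Male LKO replicate 2 was the highest library and the other LKO males lay within the WT range. In females it was at 38.6, 29.1, 14.5 and 22.5 CPM in WT and 24.4, 23.8, 16.6 and 27.9 CPM in LKO, and all 4 LKO values were inside the broad WT range. In log2 units the LKO minus WT estimate was 0.16 for males (SE 0.20) and −0.17 for females (SE 0.30).

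Zfp36 came closest to a genotype difference. Its levels were 196, 246, 231 and 272 CPM in male WT (mean 236 ± 31.8, SD, n = 4) and 292, 309, 251 and 269 CPM in male LKO (mean 280.0 ± 25.2, SD, n = 4). Of the LKO males 2 were above every WT male, and the other 2 were within the WT range. Female WT libraries held 238, 219, 169.6 and 185 CPM (mean 203 ± 31.1, SD, n = 4) and female LKO libraries 205, 222, 214 and 286 CPM (mean 232 ± 37.0, SD, n = 4). Only female LKO replicate 4 was above the WT females. Levels in LKO were 1.19-fold those of WT in males (95% interval 1.04 to 1.37; adjusted p = 0.806 by edgeR) and 1.14-fold in females (interval 0.933 to 1.40; adjusted p = 0.572). GENCODE M21 places Gm44710 on the opposite strand over Zfp36, and the strand setting of the counting was not stated. In the females Xist was at 368 CPM or above and its antisense neighbour Tsix at 0.855 CPM or below, so reads of the opposite strand were few at that locus.

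**Figure D2:**
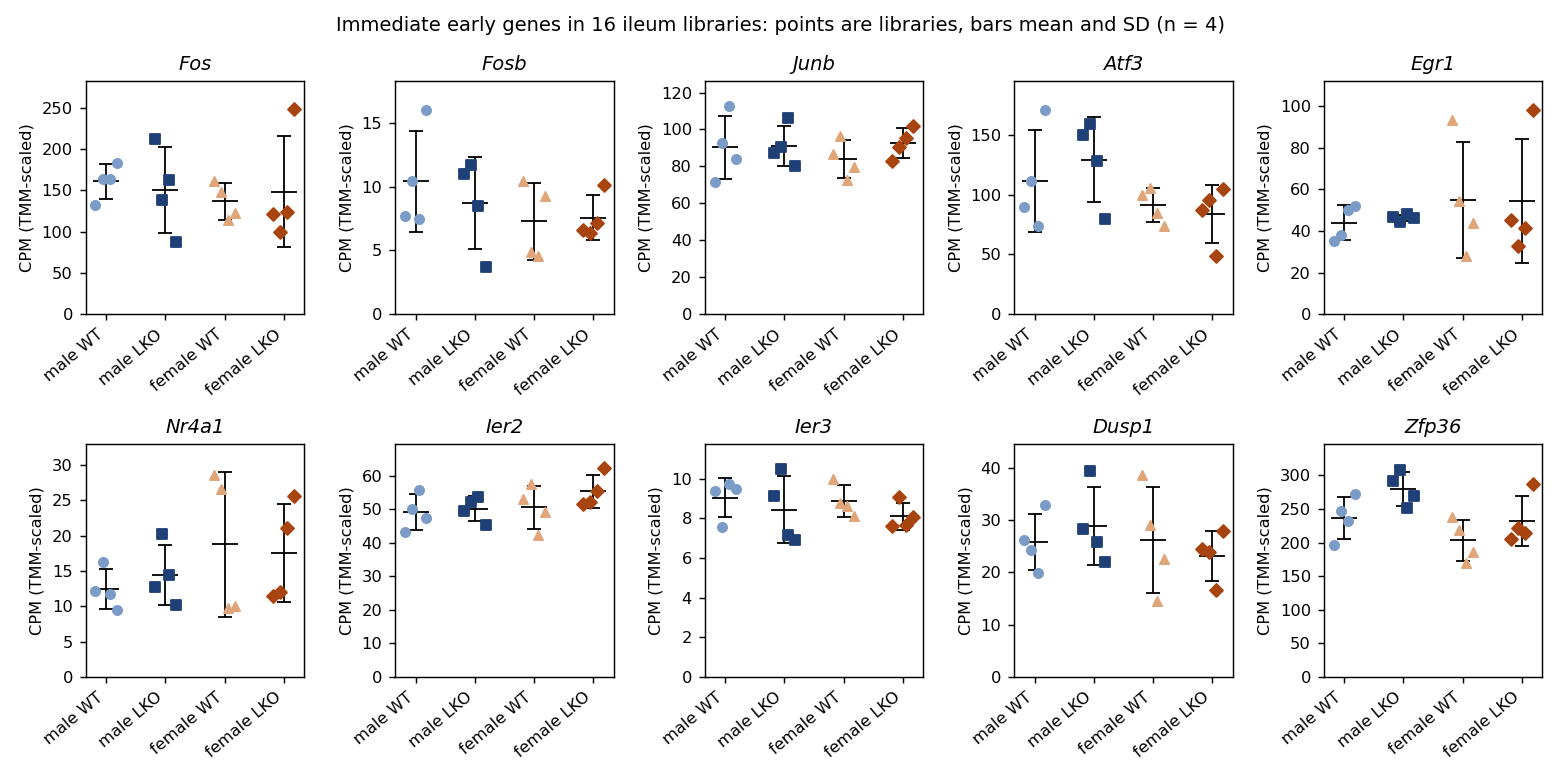
CPM of each gene (vertical axes from 0) in the 4 groups. Points are libraries in replicate order from left to right, and bars give the mean and SD (n = 4). The groups overlap for all 10 genes, and single libraries such as female LKO replicate 4 for Fos (249 CPM) and Egr1 (98.3 CPM) stand above the rest of their group.

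None of the 10 genes passed an adjusted p of 0.05 for genotype. In males 0 of 10 passed with edgeR, where 0.0527% of 15169 genes did, and 1 of 10 (Zfp36) had an unadjusted p below 0.05 against 5.29% of genes. In females 0 of 10 passed, against 0.0392% of 15298 genes, and none had an unadjusted p below 0.05, against 11.7% of genes. Over both sexes 0 of 10 passed, against 0.269% of 15598 genes, and Zfp36 alone had an unadjusted p below 0.05, against 11.2% (1.16-fold, interval 1.03 to 1.32, adjusted p = 0.320). DESeq2 likewise placed 0 of 10 past the threshold in each, and gave 1, 0 and 1 genes with an unadjusted p below 0.05. The shares above are those of edgeR, and DESeq2 passed more genes in all in each comparison, as counted further below. The groups of the 2 genotypes failed to separate for any of the 10 genes in males or in females, where 2.92% and 6.26% of all genes had groups without overlap. Estimates were above 0 for 7 of 10 genes in males, 5 in females and 7 over both sexes, where 49.2%, 51.8% and 50.2% of all genes were. The median log2 difference of the 10 was 0.06 in males and 0.02 in females, beside −0.00195 and 0.00703 for all genes tested.

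What changes these data could hide depended on the gene and the sex. For the steady genes the intervals were narrow, such as 0.903 to 1.16 times WT in males and 0.950 to 1.26 in females for Ier2, and 0.823 to 1.25 and 0.965 to 1.27 for Junb. Egr1 was narrow in males (0.898 to 1.25) and wide in females (0.435 to 2.26). Wide intervals were also those of Nr4a1 in females (0.418 to 2.07), Fosb in males (0.437 to 1.60), Atf3 in males (0.666 to 2.04) and Fos in females (0.655 to 1.80). In each of these wide intervals, for the sex named, a 1.5-fold change in either direction lay inside, whereas for Ier2 and Junb it lay outside in both sexes.

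**Figure D3:**
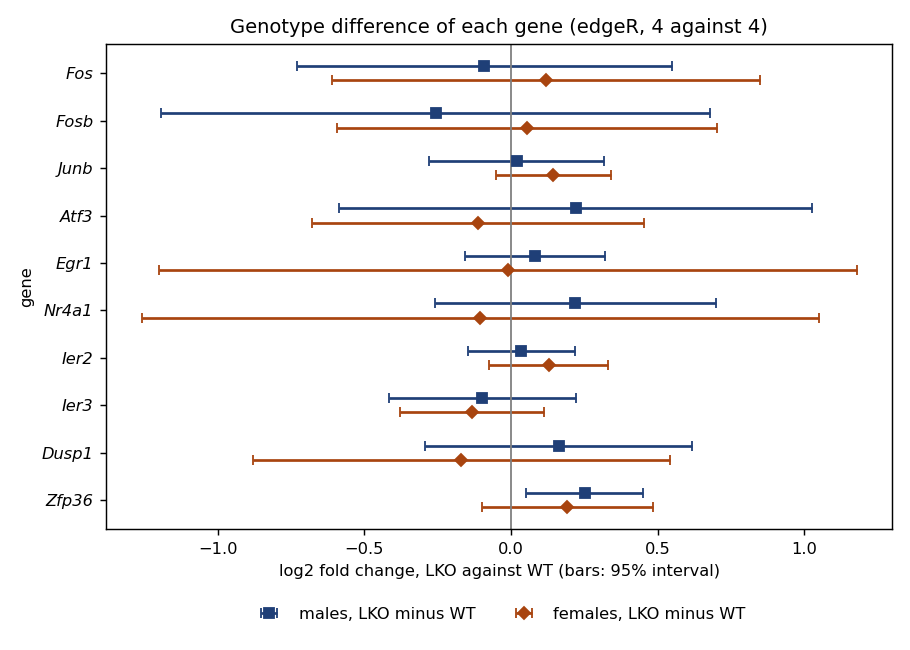
Log2 fold change of LKO against WT for each gene in males (squares) and females (diamonds), with the 95% interval from edgeR (4 against 4 libraries). The interval crosses 0 in 19 of the 20 estimates, the exception being Zfp36 in males, whose adjusted p was 0.806.

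The genotype difference itself was compared between the sexes by an interaction term. No member passed (0 of 10, with 0% of 15598 genes passing and 5.64% at an unadjusted p below 0.05, none of them a member), and DESeq2 also gave 0 of 10. Estimates were above 0 for 6 of 10, beside 48.8% of all genes. The estimates of male minus female difference ran from −0.32 (SE 0.53) for Fosb to 0.33 (SE 0.42) for Atf3. The genotype estimates had opposite signs in the sexes for 6 genes (Fos, Fosb, Atf3, Egr1, Nr4a1 and Dusp1), but each interaction interval included 0, for Dusp1 from 0.702 to 2.24 on the fold scale.

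Male and female libraries of the same genotype were compared next, as male over female. In WT 0 of 10 genes passed with edgeR, against 0.25% of 15229 genes, none had an unadjusted p below 0.05 against 13.9%, and none had groups without overlap against 8.28%. Estimates were above 0, that is higher in males, for 6 of 10 genes, beside 48.2% of all genes. Nr4a1 had the lowest estimate, 0.657-fold (interval 0.317 to 1.36), and Fosb the highest, 1.42-fold (interval 0.799 to 2.54). In LKO 0 of 10 passed against 0.0984% of 15250 genes, 1 of 10 had an unadjusted p below 0.05 against 22.6%, and none had groups without overlap against 12.8%. Estimates were above 0 for 6 of 10, beside 49.9% of all genes. Lowest p was that of Zfp36, at 1.21-fold (interval 1.03 to 1.42, adjusted p = 0.169), and it passed once female LKO replicate 4 was left out (log2 0.39, adjusted p = 0.0293). Without that library 665 genes passed in all, against 15 with it. Atf3 had the highest estimate, 1.53-fold (interval 0.935 to 2.51). DESeq2 placed 0 of 10 past the threshold in either genotype and gave 0 and 2 unadjusted p-values below 0.05. The shares of all genes given here are those of edgeR, and DESeq2 passed more genes in all, as counted further below. The summed smooth muscle markers (6 genes, none at 0) were lower in males, at 3232 to 3595 CPM in male WT against 3522 to 5418 CPM in female WT, and at 2765 to 3531 CPM in male LKO against 3706 to 5204 CPM in female LKO. The 10 heat shock genes described below had estimates above 0 for 9 in WT (median log2 0.42) and for 6 in LKO (0.16). None of them passed with edgeR or DESeq2, and 2 and 0 had an unadjusted edgeR p below 0.05, against 13.9% and 22.6% of all genes. The part of the muscle and heat shock transcripts in the sex estimates of the members was not tested.

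Differences between single libraries were shared by several genes. When the log2 CPM of each gene was standardised over the 16 libraries, the mean over the 10 genes was highest in female LKO replicate 4, at 1.06 SD, where 9 of the 10 genes were the highest of their group. It was 0.83 SD in male LKO replicate 2 and 0.81 SD in female WT replicate 1. Female WT replicate 3 was lowest, at −1.28 SD, with 8 genes lowest of their group, followed by male LKO replicate 4 at −0.89 SD, also with 8. High and low libraries therefore occurred in both genotypes and both sexes. The 4 group ranges of this mean overlapped, from −0.56 to 0.51 in male WT, −0.89 to 0.83 in male LKO, −1.28 to 0.81 in female WT and −0.46 to 1.06 in female LKO.

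Summed B cell markers were highest in female LKO replicates 3 and 2, at 291 and 156 CPM, followed by male WT replicate 2 at 93.4 CPM and female WT replicate 3 at 55.0 CPM. The other 12 libraries, with female LKO replicate 4 at 24.1 CPM, were between 14.3 and 25.3 CPM. For genotype in females the 5 B cell genes tested were all above 0 (median log2 2.61, beside 0.00703 for all genes), with 0 past the adjusted threshold with edgeR or DESeq2 and 0 and 5 with an unadjusted p below 0.05. The summed heat shock genes (10 genes, led by Hspa8, Hspd1 and Hsph1) were highest in male WT replicate 4, at 2071 CPM, and in male LKO replicate 1, at 1765 CPM, against 861 to 1405 CPM elsewhere. Male WT replicate 4 was also the library with the highest Atf3 and Fosb, and male LKO replicate 1 had the second highest Fos. Male WT replicate 4 also had the lowest Nr4a1 of the 16 libraries, and its Ier2 and Junb were −0.71 and −0.43 SD from their means. In male LKO replicate 1, Junb, Egr1, Nr4a1 and Ier2 were below their means. The titles of both libraries carry neighbouring numbers. The part of these transcripts in the member levels was not tested.

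**Figure D4:**
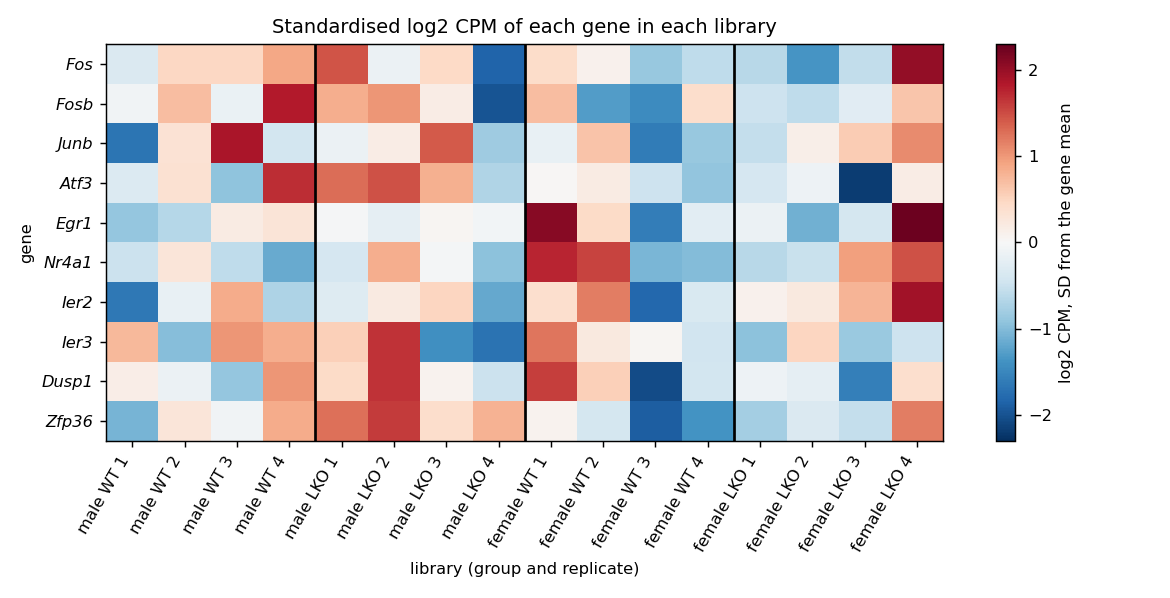
Standardised log2 CPM (colour, SD from the mean of each gene over 16 libraries) of the 10 genes in each library, with black lines between groups. Female LKO replicate 4 is red for 9 of 10 genes, and female WT replicate 3 and male LKO replicate 4 are blue for 9 of 10.

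The genes were then correlated with each other over the 16 libraries on log2 CPM, with permutation p-values (100000 resamples) adjusted over the 45 pairs. Pearson r was above 0 in 42 pairs, with a median of 0.43 and a lowest value of −0.04 for Junb and Ier3. With group means removed the median was 0.52. Adjusted p was below 0.05 for 8 pairs by r, for 8 by Spearman rho and for 5 by both. Pairs of other genes were not counted in this way, so these counts do not show whether such correlation is particular to these genes.

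Junb and Ier2 formed the closest pair, with r = 0.85 (permutation p = 7e-05, adjusted p = 0.00315) and rho = 0.88 (permutation p = 3e-05, adjusted p = 0.00135). Their r was 0.84 without the 2 libraries farthest from the Junb median, 0.97 in males and 0.96 in females. Each is a gene of a single exon on chromosome 8, at chr8:84976909-84978748 and chr8:84661331-84662852, with 314 kb between them. Among the other pairs passing by both measures, Atf3 and Dusp1 had r = 0.73 (permutation p = 0.0016, adjusted p = 0.0301) and rho = 0.81 (permutation p = 0.00029, adjusted p = 0.00653). For Nr4a1 and Ier2 the values were r = 0.71 (permutation p = 0.00204, adjusted p = 0.0301) and rho = 0.71 (permutation p = 0.00313, adjusted p = 0.0352). Fos and Fosb, which encode related partners of JUN, had r = 0.70 (permutation p = 0.00268, adjusted p = 0.0301) and rho = 0.72 (permutation p = 0.0024, adjusted p = 0.0352). Atf3 and Zfp36 gave r = 0.64 (permutation p = 0.008, adjusted p = 0.0452) and rho = 0.69 (permutation p = 0.0044, adjusted p = 0.0396). Without the 2 farthest libraries these were 0.63, 0.71, 0.62 and 0.68 in the same order.

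Another 6 pairs passed by one of the 2 measures. Egr1 and Ier2 had r = 0.64 (permutation p = 0.0079, adjusted p = 0.0452) and rho = 0.56 (permutation p = 0.0259, adjusted p = 0.0852), with r of 0.56 without the 2 libraries farthest from the Egr1 median, 0.49 in males and 0.71 in females. Fosb and Dusp1 had r = 0.60 (permutation p = 0.0141, adjusted p = 0.0635) and rho = 0.65 (permutation p = 0.00761, adjusted p = 0.0488), with r of 0.60 without the 2 libraries farthest from the Fosb median, 0.68 in males and 0.53 in females.

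In the remaining pairs that passed by one measure, r differed more between the sexes or fell without the farthest libraries. Egr1 and Nr4a1 had r = 0.63 (permutation p = 0.00725, adjusted p = 0.0452) and rho = 0.38 (permutation p = 0.145, adjusted p = 0.26) over 16 libraries. Their r was 0.25 without the 2 libraries farthest from the Egr1 median. It was −0.38 in males and 0.79 in females, 8 libraries each, so its sign differed between the sexes. Fos and Egr1 had r = 0.62 (permutation p = 0.0106, adjusted p = 0.0529) and rho = 0.64 (permutation p = 0.00868, adjusted p = 0.0488), with r of 0.25 in males and 0.89 in females. Fosb and Atf3, at r = 0.57 (permutation p = 0.0198, adjusted p = 0.0812) and rho = 0.67 (permutation p = 0.00586, adjusted p = 0.044), showed the opposite order, with r of 0.81 in males and −0.01 in females, 8 libraries each. Dusp1 and Zfp36 had r = 0.63 (permutation p = 0.00803, adjusted p = 0.0452) and rho = 0.57 (permutation p = 0.0223, adjusted p = 0.0852), and r was 0.35 without the 2 libraries farthest from the Dusp1 median. The difference between the sexes in these correlations was not tested.

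**Figure D5:**
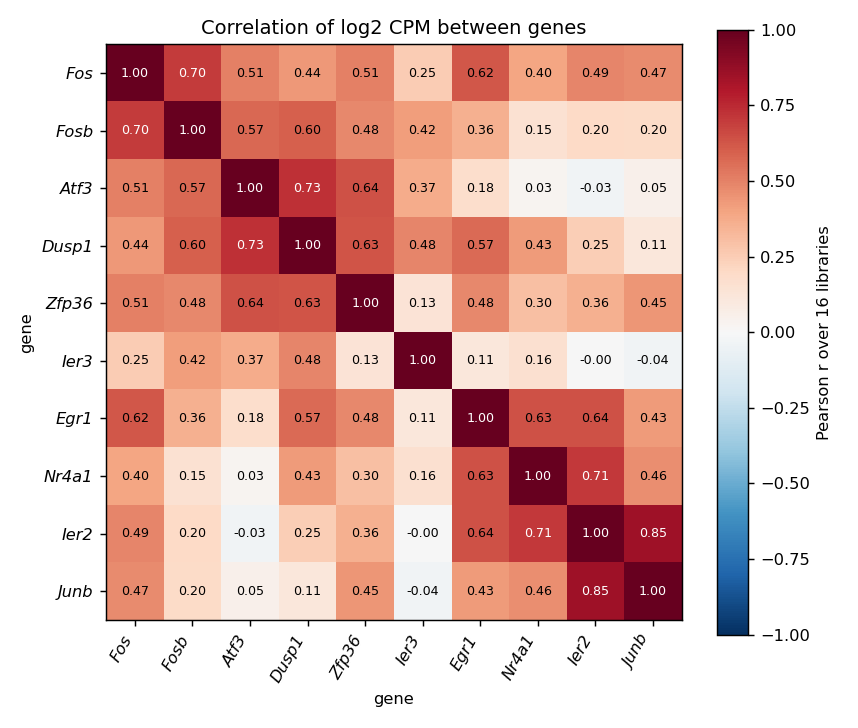
Pearson r of log2 CPM over the 16 libraries for each pair of the 10 genes (colour and number). Junb and Ier2 (0.85) and Atf3 and Dusp1 (0.73) are the highest, and the lowest is −0.04 for Junb and Ier3.

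Genes outside the 10 were ranked by r with the mean standardised level of the 10, among 11762 genes with a mean of at least 5 CPM, as a description with no p. Plk3, a stress-responsive kinase gene, was first (r = 0.82, rho = 0.91), at 14.5 to 31.7 CPM and highest in female LKO replicate 4. Adamts4, a secreted protease gene, followed with r = 0.77, then Upf3b, of nonsense-mediated decay, with 0.76, Slc25a25, a mitochondrial carrier, with 0.75, Mis18a with 0.75, Tmem199 with 0.73, Gpn2 with 0.72 and Mafk, a small MAF transcription factor, with 0.72. Jun was at rank 61, Mcl1 at 66, Fosl2 at 178, Klf4 at 755 and Klf6 at 1912. Those of the further primary response genes described below with a mean of at least 5 CPM took ranks from 1, for Plk3, to 10125, where r was −0.27. All these points share libraries with the 10 genes.

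Among 35 further primary response genes in the table, led in level by Klf4, Klf6 and Mcl1, 0 passed the adjusted threshold for genotype with edgeR. DESeq2 passed Nfkbia in females and Nfkbia and Gadd45g over both sexes. It also passed more genes in all than edgeR in these comparisons, as counted further below. Estimates were above 0 for 27 of 35 in males (median log2 0.10), for 26 in females (0.09) and for 30 over both sexes (0.11), beside 49.2%, 51.8% and 50.2% of all genes tested. Unadjusted p was below 0.05 for 5, 5 and 6 of the 35, where 5.29%, 11.7% and 11.2% of all genes were. Smallest was that of Gadd45g, a growth arrest and stress gene named here after its value was seen, at log2 0.43 (SE 0.10, adjusted p = 0.0592, edgeR) over both sexes. Jun, Jund and Fosl2, the most abundant of 8 other AP-1 genes, were between 96.3 and 368 CPM. Jun and Fosl2 are also among the 35 genes, so these lists overlap. Estimates of the 8 were above 0 in 3 in males and in 8 in females, beside 49.2% and 51.8% of all genes, none past the threshold with edgeR or DESeq2 and 1, 0 and 0 with an unadjusted edgeR p below 0.05 in males, in females and over both sexes, beside 5.29%, 11.7% and 11.2% of all genes.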

How the data were processed

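RNA from a piece of ileum next to the caecum was sequenced by the authors as stranded poly(A) libraries with 100 bp single-end reads. Per the submitters' processing notes and the methods of the study, STAR 2.5.2 aligned the reads to mm10, with at most 4 mismatches and 1 mapping position allowed, and HOMER 4.10 counted reads over exons. The deposited columns hold unscaled read counts, whole numbers for each gene, with 1 transcript kept per gene. The strand setting and annotation version are not given in the sources used here. The authors tested counts with DESeq2.

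Groups and replicate numbers came from the sample titles. All genes were fitted with edgeR 4.0.16 under R 4.3.3, using its quasi-likelihood F-test (TMM scaling, filterByExpr by group, robust fits), with Benjamini-Hochberg adjustment over all genes and a threshold of 0.05. Comparisons of 2 groups used their 8 libraries, the effect over both sexes and the interaction all 16. The standard error is the log2 difference divided by the square root of F, and intervals are 95%. CPM values are TMM-scaled, with a prior count of 2 on the log2 scale. RPKM divides mean CPM by the transcript length of the deposited table. Correlations used 100000 permutations. No 2 libraries of a group were alike within counting noise (24 pairs, chi-square per degree of freedom 8.84 to 29.4). Intervals reflect these libraries only. Alternatives were DESeq2 1.42.0, other scalings and filters, a non-robust fit, the replicate block, the number in the sample title, a thinned deepest library, all 16 libraries in one model and each library left out. The fits were tested on simulated data.

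The 10 genes and all gene lists were chosen with earlier results of these data known, and they support no independent test. Named were the 10 genes, of each other list the 3 with the highest mean CPM and any past the threshold (in 2 lists 1 of the 3 is not reported here), and the 8 genes with a mean of at least 5 CPM most like the mean of the 10.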

Additional observations from a re-analysis of the deposited data

Results flagged for a closer look

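Fos in female LKO replicate 4, at 249 CPM, stood apart from the other female LKO libraries, which lay between 100.0 and 124 CPM. The gap to the nearest library was 0.84 of the range of the group, above Dixon's 95% critical value for 4 samples. Ier3 in male WT replicate 2, at 7.59 CPM, stood below the other male WT libraries at 9.39 to 9.72 CPM, with a gap of 0.844 of the range. Among the 40 sets of 4 libraries examined (10 genes in 4 groups) chance alone gives about 2 such values, and 2 were found.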

How the results depend on the processing

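The number of the 10 genes past the threshold was 0 in each comparison under every scaling, filter, covariate and tool tried, and leaving out a library changed it only for the sex difference in LKO (0 to 1, the 1 being Zfp36 without female LKO replicate 4). It was thus 1 of 1320 fits of a member. The replicate block also gave 0 of 10 throughout. It gave 16 genes in all past the threshold in males, 15 in females and 24 over both sexes. Same-numbered libraries correlated between −0.10 and 0.26. Some, such as female replicates 1 and 3 between the genotypes (r = 0.18 and 0.26), correlated best with their own number, and others did not. What the replicate number stands for is not stated, and these correlations do not settle it.

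Counts over all genes were less stable. In males, 8 genes passed, against 63 with DESeq2, 25 with no filter, 3 with the title number and 3 with sets of neighbouring title numbers, 4 with all 16 libraries in one model, and 5 to 29 with a library left out. In females, 6 passed, against 154 with DESeq2, 15 with no filter, 3 with the deepest library thinned, 12 in one model, and 0 to 4 with a library left out. Over both sexes, 42 passed, against 224 with DESeq2, 2 and 0 with the title number and its sets, 25 with thinning, and 5 to 102 with a library left out. The interaction gave 0, and 0 to 1 with a library left out (1 without female WT replicate 1). For sex in WT, 38 passed, against 250 with DESeq2, 71 with no filter, 14 with at least 10 counts in every library, 12 without the robust fit, 17 and 20 with the title number and its sets, and 9 to 64. For sex in LKO, 15 passed, against 1043 with DESeq2, 78 with upper-quartile scaling, 139 with no filter, 1 with at least 10 counts, 8 without the robust fit, 8 with the title number sets, 403 in one model, and 7 (without female LKO replicate 1) to 665 (without female LKO replicate 4). The cause was not tested.

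Of 611 estimates for single genes under an alternative, 39 changed sign and 1 newly passed. The 611 covered all 10 genes for genotype in males and in females. In the other comparisons they covered only the genes with the lowest or highest estimate or the lowest p. None of those that changed sign had passed the threshold. In males the title number gave 0.51 for Fos, 0.31 for Fosb and 0.13 for Ier3, and its sets 0.22 for Fos, −0.19 for Atf3, −0.15 for Egr1 and −0.21 for Dusp1. In females it gave −0.00585 for Fosb, 0.15 for Egr1, 0.15 for Nr4a1 and 0.0223 for Dusp1, its sets −0.21 for Fosb, and upper-quartile scaling 0.00256 for Egr1. Its sets gave −0.15 for the Dusp1 interaction and 0.22 for Nr4a1 by sex in WT. With a library left out, male estimates ran from −0.30 to 0.10 for Fos, −0.43 to 0.0293 for Fosb, −0.0756 to 0.14 for Junb, −0.00824 to 0.17 for Egr1, −0.0211 to 0.10 for Ier2 and −0.0202 to 0.30 for Dusp1. Female ones ran from −0.25 to 0.27 for Fos, −0.11 to 0.28 for Fosb, −0.23 to 0.0722 for Atf3, −0.45 to 0.37 for Egr1, −0.35 to 0.17 for Nr4a1 and −0.37 to 0.0754 for Dusp1. Zfp36 kept its sign under all alternatives for genotype in males, in females and over both sexes and for sex in LKO. In males every WT title number was below every LKO title number, so genotype and title number cannot be told apart there. With the title number sets, the male genotype estimates compared only male WT replicate 4 with male LKO replicate 1, which shared a set.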

Other observations

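Among 19 upstream regulators of the response (led by Mapk3 and Rps6ka1) and 10 paralogs of Dusp1 and Zfp36 (led by Dusp6, Zfp36l1 and Zfp36l2), 0 genes passed the adjusted threshold for genotype with edgeR or DESeq2, and the unadjusted edgeR p was below 0.05 for 2 regulators and 1 paralog over both sexes, near the 11.2% of all genes. Mapk3, which encodes the kinase ERK1, was between 434 and 523 CPM over the 16 libraries. Dusp6, the phosphatase of ERK, ranged from 82.7 to 181 CPM, while Zfp36l1 stayed between 103 and 137 CPM.

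The heat shock genes had estimates above 0 for genotype in 2 of 10 in males, in 8 of 10 in females and in 3 of 10 over both sexes, and in 0 of 10 for the interaction, beside 49.2%, 51.8%, 50.2% and 48.8% of all genes. No gene of this list passed the threshold in these with edgeR or DESeq2, and 0 had an unadjusted p below 0.05 by either tool. Hsph1, a chaperone gene, spanned 59.1 to 319 CPM. Of the 9 marker lists, 1 gene passed with edgeR in any comparison, the fibroblast gene Lum, which was lower in male WT than in female WT (log2 −0.59, SE 0.11, adjusted p = 0.0464). DESeq2 passed more of them, among these 5 of the smooth muscle genes (Cnn1, Myh11, Tagln, Des and Acta2) and 4 fat cell genes for the sex difference in LKO, Dcn and Lum for that in WT, and Apoa4 and Cidec for genotype in females.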
